A study of Mus musculus with 10 samples.

Results

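The genes described here are 10 immediate-early transcription factor and response genes of the Fos, Jun and Egr families: *Fos*, *Fosb*, *Fosl1*, *Fosl2*, *Jun*, *Junb*, *Egr1*, *Egr2*, *Egr3* and *Ier2*. They were chosen by symbol, and all 10 were found among the 23230 features of the deposited FPKM matrix. FPKM counts the fragments of a transcript relative to its length and to the size of the library, so levels can be compared between genes. RNA was sequenced from 10 mouse cultures, 1 library each, to compare stages of glioma formation.

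All 10 libraries derive from cortical astrocytes of C57BL/6 pups at postnatal day 5 that lack p16/p19 (*Ink4a/Arf*) and carry a retroviral vector expressing human EGFRvIII, a truncated EGF receptor that signals without ligand. They form 3 groups. AstroEGFR are these astrocytes (3 libraries, from astrocyte batches 1, 2 and 3). PT are glioma propagating cells cultured from tumours that AstroEGFR formed in CD1 Nude mice (4 libraries, with batch 1 as the source of PT1 and PT4, batch 2 of PT2 and batch 3 of PT3). The batch of each PT culture comes from the study's description and not from the sample labels. AstroEGFR_Zfp423 are AstroEGFR of each batch that also carry a vector overexpressing *Zfp423*, a zinc finger factor of the BMP pathway (3 libraries). Every line was below passage 10. AstroEGFR were grown with serum and detached with trypsin, while PT were grown without serum, with EGF and FGF2 on laminin, and detached with Accutase. Immediate-early genes respond to serum, growth factors and handling, so in a comparison with PT the medium, the handling and the growth in a tumour cannot be told apart.

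The libraries differed in ways their labels do not give. AstroEGFR_3 and PT3 were shallower than the rest, with 8417 and 9155 features listed at 0 against 6200 to 7436 in the others. The summed FPKM of 5 microglial markers was 410 in AstroEGFR_1_Zfp423 and 181 in AstroEGFR_2_Zfp423 but at most 3.38 in the other 8 libraries, with *Aif1*, *Cx3cr1*, *Csf1r* and *Ptprc* under 1 FPKM in each of those without the *Zfp423* vector. The sum of 6 astrocyte markers was 4.97 in AstroEGFR_2_Zfp423 and 121 to 947 elsewhere, and that of 5 fibroblast or meningeal markers was 4449 to 6183 in AstroEGFR_3, AstroEGFR_1_Zfp423 and AstroEGFR_2_Zfp423 and at most 482 elsewhere. Small RNA features made up 0.21%, 27.5% and 4.81% of the summed FPKM in AstroEGFR_1, AstroEGFR_2 and AstroEGFR_3, 0.42%, 33.9%, 6.06% and 0.61% in PT1, PT2, PT3 and PT4, and 34.8%, 34.9% and 54.6% in the infected libraries of batches 1, 2 and 3. *Zfp423* itself stood at 15.7, 9.73 and 105 FPKM in the 3 infected libraries, at 3.25 to 4.30 in AstroEGFR and at 0.641 to 2.78 in PT. Since *Gapdh* was listed at only 0.0106 to 50.1 FPKM, a low value here says what is listed and does not show that the transcript was missing. None of the 10 genes was listed at 0 in any library.

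Immediate-early genes are transcribed within minutes of a stimulus such as serum, growth factors or depolarization, without new protein synthesis. Fos and Jun proteins pair through leucine zippers to form the factor AP-1, which binds TRE and CRE elements, and Egr proteins are zinc finger factors that bind GC-rich elements. In astrocytes and glioma cells the EGF receptor feeds this response through ERK, which activates ternary complex factors and SRF at the CArG boxes of these genes.

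Promoters are shown for 4 of the genes, to let the elements of this response be read beside the levels. Each of the 4 held an element that was searched for. *Jun*, which held none, and *Fosl2* are not shown. RefSeq promoters of GRCm38.p6, a later assembly than the mm9 of the submitters' processing notes, matched 6 of the 10 genes (*Fos*, *Fosb*, *Fosl2*, *Jun*, *Junb* and *Egr2*). The 250 bases before each start were searched on both strands for the CRE (TGACGTCA), its core (TGACG, which the full CRE also contains), the TRE (TGANTCA), an EGR element (GCGNGGGCG) and the CArG box. Each line gives the 150 bases that end at the base before the start, with capitals marking the matches.
Fos (chr12:85473740-85473889, plus strand): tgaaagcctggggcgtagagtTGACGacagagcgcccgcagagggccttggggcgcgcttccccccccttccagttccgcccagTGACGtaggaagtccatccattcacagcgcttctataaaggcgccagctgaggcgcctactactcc
Fosb (chr7:19310046-19310195, minus strand): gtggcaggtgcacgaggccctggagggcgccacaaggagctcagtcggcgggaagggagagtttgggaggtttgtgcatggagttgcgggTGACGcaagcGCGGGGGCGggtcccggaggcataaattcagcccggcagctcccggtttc
Junb (chr8:84978749-84978898, minus strand): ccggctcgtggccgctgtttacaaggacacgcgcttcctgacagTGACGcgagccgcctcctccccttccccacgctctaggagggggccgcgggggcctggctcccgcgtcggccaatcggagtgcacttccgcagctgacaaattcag
Egr2 (chr10:67537719-67537868, plus strand): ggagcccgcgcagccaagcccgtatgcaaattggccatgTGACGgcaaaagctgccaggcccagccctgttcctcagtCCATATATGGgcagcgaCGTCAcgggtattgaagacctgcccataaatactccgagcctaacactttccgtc

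*Fos* held the CRE core at 129 to 125 and at 66 to 62 bases before its start, and *Fosb* held it at 60 to 56 with an EGR element at 50 to 42. *Junb* held the core at 106 to 102 bases. *Egr2*, for which RefSeq lists 5 starts and the third is shown because it holds both kinds of element, held a CArG box at 72 to 63 bases, the core at 111 to 107 and its reverse at 55 to 51. Its first start held no match, its second only a CArG box, and the other two the same kinds of element as the third. Over 32851 RefSeq promoters the core occurred in 17.8%, the full CRE in 1.55%, the TRE in 6.75%, the EGR element in 4.7% and the CArG box in 1.47%. A match is a stretch of letters and not a measured binding site. *Fosl2* held an EGR element at 79 to 71 bases, and none of these letters was found in the searched window of *Jun*.

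*Fos*, which supplies the inducible partner of AP-1, had the largest standard deviation of log2(FPKM + 1) within groups among the 10 genes. It was listed at 7.04, 40.6 and 11.8 FPKM in AstroEGFR_1, AstroEGFR_2 and AstroEGFR_3. In PT1, PT2, PT3 and PT4 it was listed at 10.9, 4.40, 5.54 and 40.9 FPKM. In AstroEGFR_1_Zfp423, AstroEGFR_2_Zfp423 and AstroEGFR_3_Zfp423 it was listed at 119, 19.0 and 40.3 FPKM. The 3 groups overlapped: PT4 and AstroEGFR_2 stood at nearly the same level, above the lowest infected library, and each group held a range of more than 5-fold, from 5.77-fold in AstroEGFR to 9.30-fold in PT.

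*Fosb*, whose product is a close relative of Fos, was the lowest of the Fos family in 9 of 10 libraries. Its levels were 0.710, 2.54 and 0.637 FPKM in AstroEGFR, 0.234, 0.332, 1.33 and 0.191 FPKM in PT1, PT2, PT3 and PT4, and 4.36, 1.22 and 3.12 FPKM in the infected libraries of batches 1, 2 and 3. PT1, PT2 and PT4 lay below every other library, and PT3 did not.

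*Fosl1*, which encodes Fra-1, a member with later and longer expression than Fos, was listed at 10.7, 9.31 and 4.86 FPKM in AstroEGFR. It stood at 15.6, 2.94, 29.3 and 5.50 FPKM in PT1, PT2, PT3 and PT4 and at 1.61, 18.1 and 18.9 FPKM in the infected libraries of batches 1, 2 and 3. The groups overlapped over most of their range, and the ends of the range, AstroEGFR_1_Zfp423 and PT3, were 18.2-fold apart. *Fosl1* overlaps *Ccdc85b* on the other strand in the GENCODE annotation, and *Ccdc85b* was listed at 2.4 to 21.6 FPKM, so where strand was not used in counting, reads of both could mix.

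*Fosl2*, which encodes Fra-2, had the smallest range of the 10, at 2.42-fold. It was listed at 41.4, 21.5 and 32.7 FPKM in AstroEGFR, at 26.5, 25.4, 29.1 and 19.0 FPKM in PT1, PT2, PT3 and PT4, and at 30.2, 46.0 and 30.7 FPKM in the infected libraries. All 4 PT libraries lay below all 3 infected libraries, and both groups overlapped AstroEGFR.

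*Jun*, which encodes the DNA-binding partner that can also pair with itself, was listed at 97.8, 79.7 and 47.1 FPKM in AstroEGFR. It stood at 158, 36.5, 108 and 146 FPKM in PT1, PT2, PT3 and PT4 and at 40.5, 36.5 and 149 FPKM in the infected libraries of batches 1, 2 and 3. PT1, PT4, PT3 and AstroEGFR_3_Zfp423 were above every AstroEGFR library, while PT2 and the infected libraries of batches 1 and 2 were below all of them. Its antisense transcript Junos overlaps it in the annotation and was not read separately here.

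*Junb*, whose product can restrain the activity of Jun, was listed at 31.6, 15.2 and 36.0 FPKM in AstroEGFR, at 23.6, 40.8, 18.9 and 28.5 FPKM in PT1, PT2, PT3 and PT4, and at 49.2, 52.8 and 13.7 FPKM in the infected libraries. The infected libraries of batches 1 and 2 were the highest of the 10 and that of batch 3 the lowest. *Junb* overlaps the abundant *Prdx2* on the other strand, which stood at 144 to 301 FPKM.

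*Egr1*, the most widely induced zinc finger factor of its family, was listed at 37.9, 49.7 and 81.5 FPKM in AstroEGFR, at 52.0, 14.4, 234 and 80.5 FPKM in PT1, PT2, PT3 and PT4, and at 51.9, 27.5 and 51.0 FPKM in the infected libraries. PT held both the lowest library, PT2, and the highest, PT3, which were 16.2-fold apart. *Egr2*, which is known for its part in Schwann cell myelination and is also expressed by activated macrophages, was listed at 3.73, 3.17 and 16.1 FPKM in AstroEGFR, at 2.65, 2.82, 10.0 and 4.87 FPKM in PT1, PT2, PT3 and PT4, and at 18.5, 12.8 and 4.47 FPKM in the infected libraries. AstroEGFR_1_Zfp423, AstroEGFR_3, AstroEGFR_2_Zfp423 and PT3, from every group, were the 4 libraries at or above 10 FPKM.

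*Egr3*, a factor that Egr1 can induce in turn and whose range over the 10 libraries was the widest at 27.6-fold, was listed at 2.58, 1.04 and 5.79 FPKM in AstroEGFR, at 2.28, 0.209, 5.0 and 1.34 FPKM in PT1, PT2, PT3 and PT4, and at 1.79, 1.68 and 2.30 FPKM in the infected libraries. AstroEGFR_3 and PT3 of batch 3 were highest and AstroEGFR_2 and PT2 of batch 2 were lowest in their groups. *Ier2*, a small nuclear immediate-early protein, was listed at 25.9, 13.8 and 33.2 FPKM in AstroEGFR, at 19.9, 39.5, 70.2 and 40.7 FPKM in PT1, PT2, PT3 and PT4, and at 24.7, 22.4 and 22.7 FPKM in the infected libraries. PT2, PT3 and PT4 were above all others and PT1 was below all but AstroEGFR_2.

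**Figure D1:**
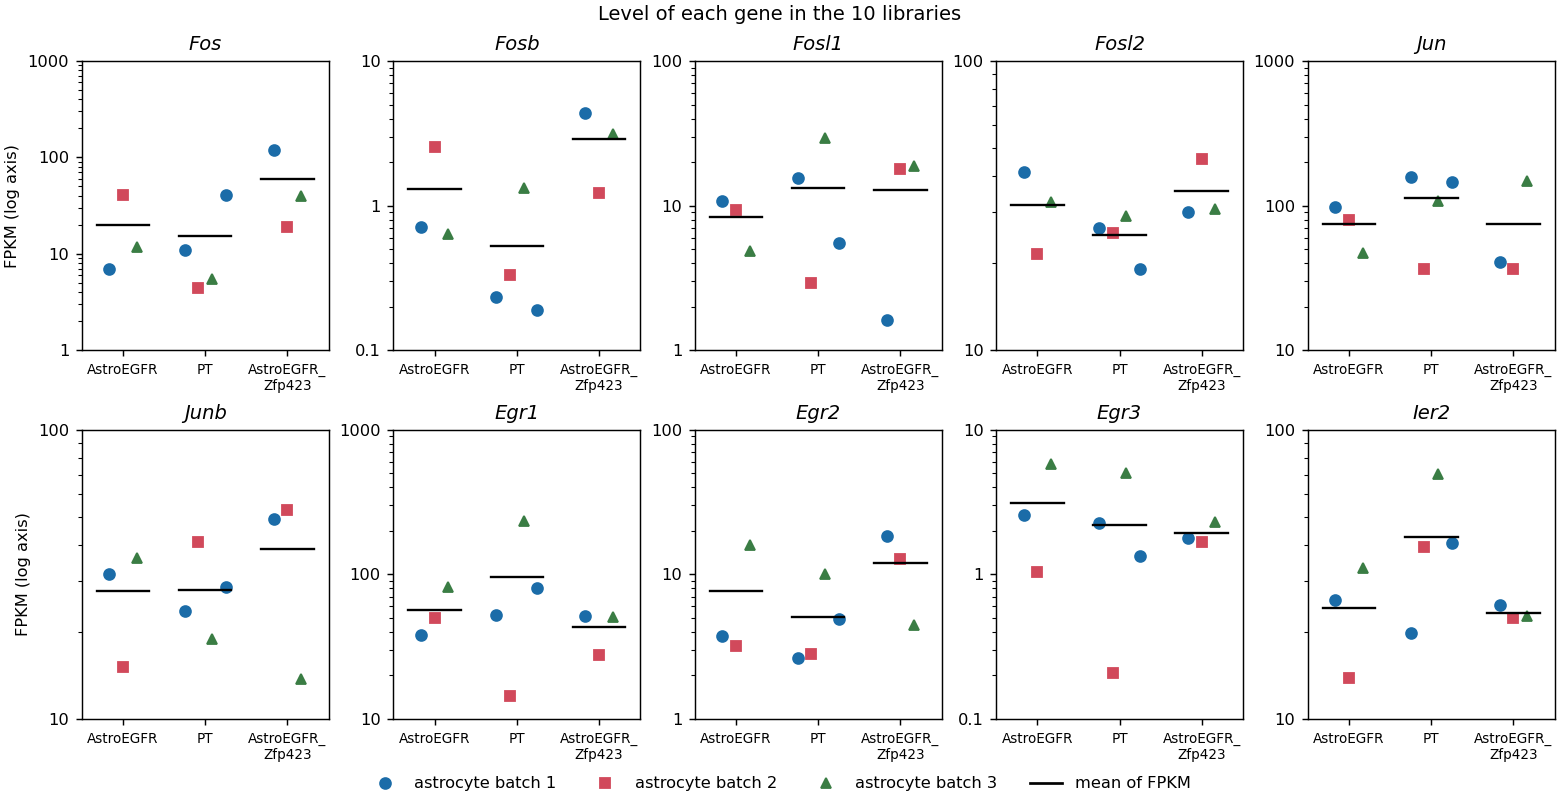
FPKM of each gene (vertical log axis, its own range in each panel) in the 3 AstroEGFR, 4 PT and 3 AstroEGFR_Zfp423 libraries, with 1 point per library, shape and colour for the astrocyte batch and a line at the mean of FPKM. *Fos* runs from 4.40 to 119 FPKM, and *Fosl2* from 19.0 to 46.0 FPKM is the only gene whose PT and AstroEGFR_Zfp423 points do not overlap.

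Within groups, the standard deviation of log2(FPKM + 1) was 1.29 for *Fos*, 1.28 for *Fosl1* and 1.14 for *Egr1*, against a median of 0.50 over 12476 features (those whose mean over the 10 libraries reached 1 FPKM). These values stood at percentiles 91.2, 91.0 and 87.6 of those features. *Egr2*, *Jun*, *Egr3* and *Junb* stood at percentiles 80.5, 80.0, 74.2 and 70.3, *Ier2* and *Fosb* at 59.1 and 57.8, and *Fosl2* alone was below the median, at 26.8. All but *Fosl2* were therefore more variable between libraries of 1 group than the median feature, which sets how small a difference between groups could be seen.

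The make-up of the Fos and Jun families differed between libraries of the same group. Among *Egr1*, *Egr2* and *Egr3*, *Egr1* was the highest in 10 of 10 libraries, with 65.5% to 94.0% of the summed FPKM. Among *Jun*, *Junb* and *Jund*, the third and least inducible Jun gene, *Jun* was highest in 7 libraries and *Junb* in 3, which were PT2 (34.8%), AstroEGFR_1_Zfp423 (46.7%) and AstroEGFR_2_Zfp423 (47.1%). In PT2 the lead was small, with *Jund* at 34.1% and *Jun* at 31.2%. Among the 4 Fos genes, *Fosl2* was highest in 5 libraries, *Fos* in 4 and *Fosl1* in PT3. There *Fosl1* and *Fosl2* were nearly level, at 44.9% and 44.6%. *Fos* made up 8.48% of its family in PT3 and 76.7% in AstroEGFR_1_Zfp423, and *Fosb* never more than 3.43%.

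**Figure D2:**
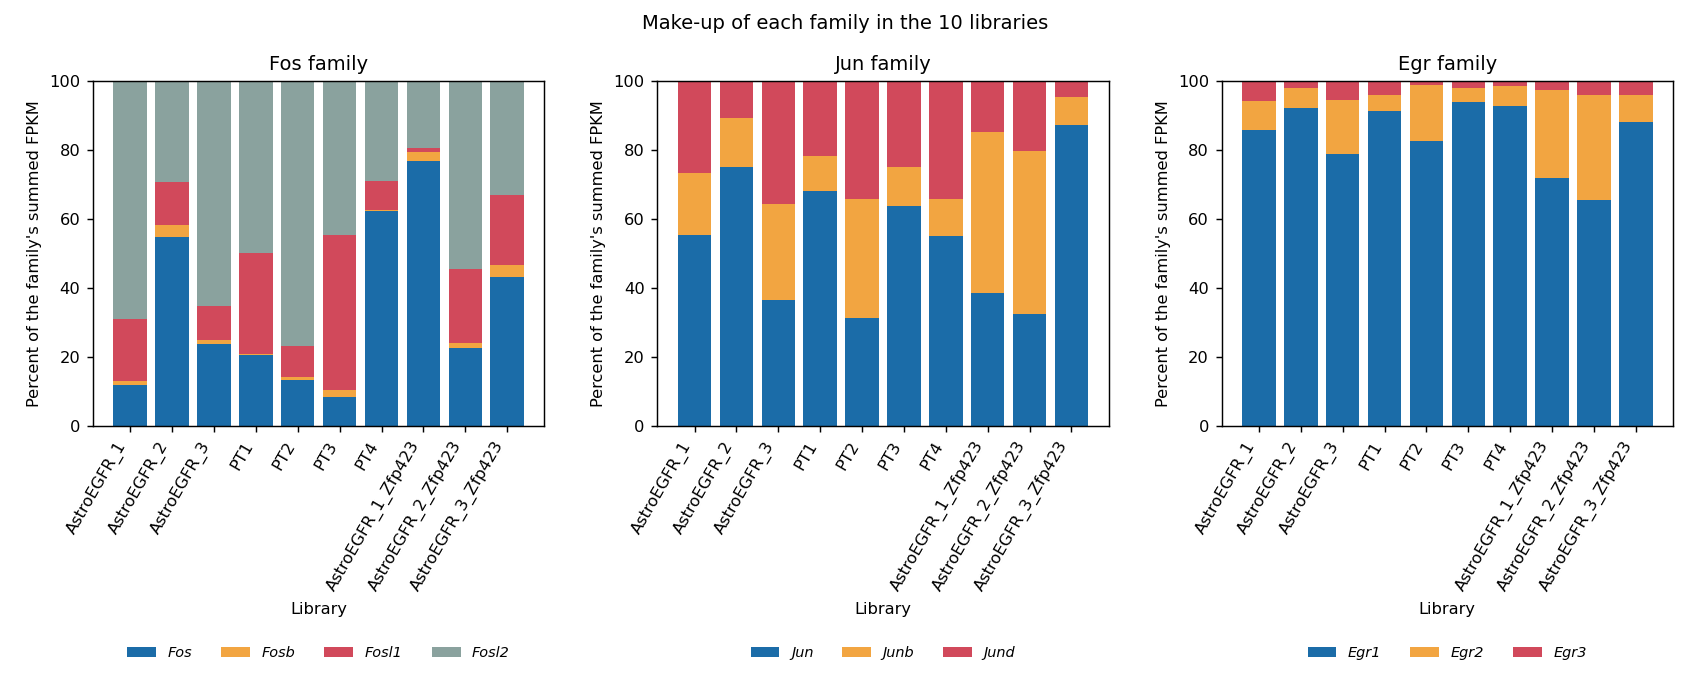
Share of each gene in the summed FPKM of its family (vertical axis, percent) in each library (horizontal axis), for the Fos, Jun and Egr families. *Egr1* fills most of each bar of the Egr family, at 65.5% to 94.0%, while the largest part of the Fos bars changes between *Fosl2* and *Fos*. In PT3 *Fosl1* and *Fosl2* are nearly level, at 44.9% and 44.6%.

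PT were compared with AstroEGFR to ask whether the expression of these genes changed between the astrocytes and the tumour cells grown from them. No gene of the 10 passed the test. *Ier2* showed the largest difference, at 42.6 ± 20.8 FPKM in PT (SD, n = 4) and 24.3 ± 9.77 in AstroEGFR (SD, n = 3), with a log2 fold change of 0.74 (SE 0.46, 95% interval -0.33 to 1.80) and an adjusted p of 0.551 by limma. The value for *Ier2* was 0.39 without AstroEGFR_2, 0.46 without PT3 and 1.05 without PT1. For *Fos* the log2 fold change was -0.50 (SE 0.82, interval -2.39 to 1.4), with 15.4 ± 17.2 FPKM in PT and 19.8 ± 18.2 in AstroEGFR. For *Egr1*, at 95.2 ± 96.3 FPKM in PT and 56.3 ± 22.6 in AstroEGFR, it was 0.20 (SE 0.83, interval -1.72 to 2.12). Intervals as wide as those of *Fos* and *Egr1* include changes of several fold in either direction.

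Of the 9 genes that could be tested, with *Fosb* below the mean of 1 FPKM in these libraries, 5 had a higher and 4 a lower mean in PT, with adjusted p-values of 0.551 to 0.970. The number called, 0, stands beside 152 of all 12261 features (1.24%), of which 39 were higher (0.318%) and 113 lower (0.922%). With the batch as a block it was 475 features, 146 higher and 329 lower, and again 0 of the genes. At an unadjusted p under 0.05 it was also 0, beside 13.6% of features, and 0 had groups that did not overlap, beside 14.8%. The median log2 fold change was 0.05 for the 9 genes and 0.03 for all features. The count over all features rested on single libraries, falling to 7 without AstroEGFR_1, 54 without AstroEGFR_3, 58 without PT4, 70 without PT2 and 97 without PT1. Among the 9 tested genes it was 0 in each of these fits. With so small a share of features called, a count of 0 among 9 genes does not set them apart from all features. Exact permutation of the group labels, two-sided, gave p-values of 0.257 to 0.914 for the 10 genes, *Fosb* included, where the smallest possible is 0.0286.

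*Fosb* was listed at 0.522 ± 0.542 FPKM in PT and 1.3 ± 1.08 in AstroEGFR and gave an exact permutation p of 0.257. *Egr3* was lower in each of the 4 PT libraries than in the AstroEGFR library of its own batch, as were 18.2% of all features. The amounts ran from 0.13 to 0.76 on the log2 scale. In the main fit, which left the batch out, its log2 fold change was -0.43 (SE 0.63, adjusted p = 0.838 by limma). With the batch as a block it was -0.43 (SE 0.28, adjusted p = 0.373 by limma). PT1 and PT4 share a batch, so the 4 PT libraries come from 3 batches.

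Infected and uninfected AstroEGFR were compared within batches to ask whether the *Zfp423* vector changed these genes. The means of *Fos*, *Fosb* and *Egr2* were higher with the vector, and none passed the test. *Fos* stood at 59.5 ± 52.8 FPKM with the vector and 19.8 ± 18.2 without (SD, n = 3 each), with a log2 fold change of 1.51 (SE 1.01, interval -1.24 to 4.26, adjusted p = 0.698 by limma with the batch as a block). The value for *Fos* was 0.31 without either library of batch 1 and 2.79 without either of batch 2. *Egr2* stood at 11.9 ± 7.07 FPKM with the vector and 7.65 ± 7.28 without, with a log2 fold change of 0.71 (SE 0.85, adjusted p = 0.824). *Ier2*, at 23.3 ± 1.24 and 24.3 ± 9.77 FPKM, had the smallest difference, with a log2 fold change of 0.02 (SE 0.31, interval -0.82 to 0.87).

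All 10 genes were tested here, 7 with a higher and 3 with a lower mean of log2(FPKM + 1), and 0 were called, beside 0 of all 12366 features (0.0%). At an unadjusted p under 0.05 it was 0 of the 10, beside 913 features (7.38%). For 0 of the 10 genes did all 3 batches move in 1 direction, beside 31.6% of all features. The median log2 fold change was 0.17 for the 10 genes and 0.02 for all features. With 3 pairs, no exact permutation test within batches can reach the threshold, and leaving out AstroEGFR_2 or AstroEGFR_2_Zfp423 raised the calls over all features to 47 and 60, with 0 among the 10 genes.

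Within batches, 6 of the 10 genes were at least 2-fold higher with the vector in 1 batch and at least 2-fold lower in another (*Fos*, *Fosb*, *Fosl1*, *Jun*, *Junb* and *Egr2*), beside 14.6% of all features. *Fos* was 16.9-fold higher in batch 1 and 3.40-fold higher in batch 3 but 2.14-fold lower in batch 2. *Fosb* followed the same order, at 6.14-fold higher, 4.90-fold higher and 2.08-fold lower. *Fosl1* went the other way in batch 1, where it was 6.68-fold lower. The small RNA share rose with the vector from 0.21% to 34.8% in batch 1 and from 4.81% to 54.6% in batch 3, where *Fos* and *Fosb* were higher, and from 27.5% to 34.9% in batch 2, where they were lower. Its part in these values was not tested.

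*Jun* was 2.41-fold and 2.19-fold lower in batches 1 and 2 and 3.16-fold higher in batch 3. *Junb* was 1.56-fold and 3.48-fold higher in batches 1 and 2 and 2.62-fold lower in batch 3. *Egr2* was 4.96-fold and 4.03-fold higher in batches 1 and 2 and 3.59-fold lower in batch 3. Batches 1 and 2 thus moved together for these 3 genes, and batch 3 moved against them. Each batch holds 1 library of either kind, so no difference between batches was tested, and the pairing rests on the shared culture number of the labels. The values of batches 2 and 3 depend on it most, since over all features the infected and uninfected libraries of these batches deviated from their group means together less within a number (correlations of -0.111 and -0.262) than across the numbers (0.224 and 0.308).

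**Figure D3:**
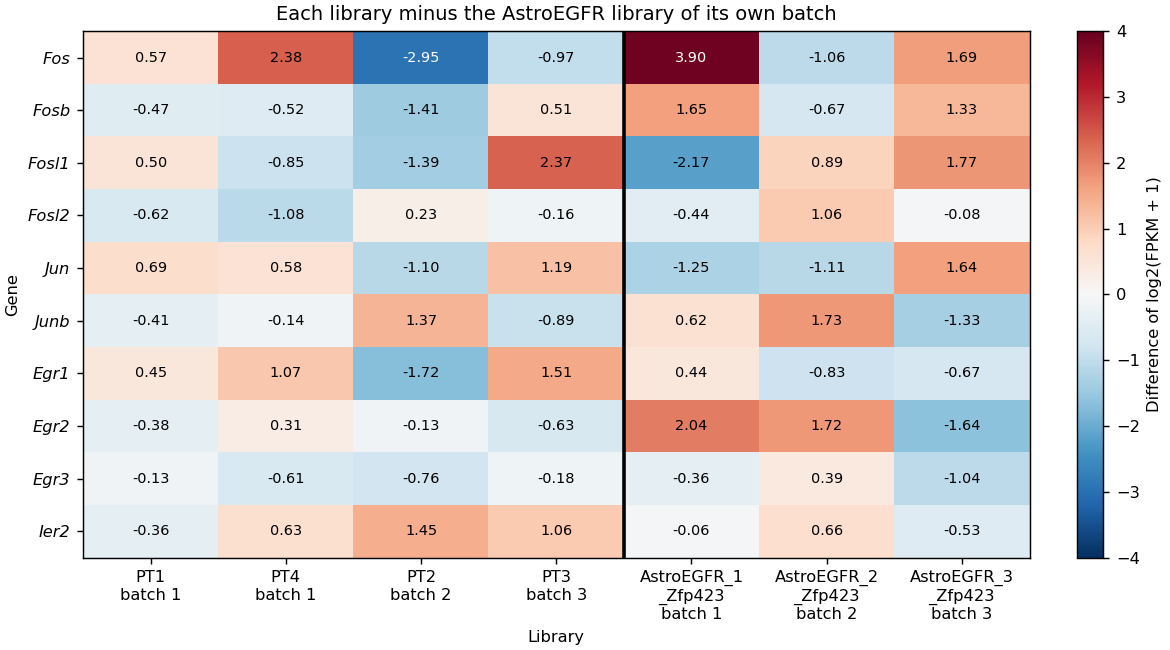
Difference of log2(FPKM + 1) between each PT or infected library and the AstroEGFR library of its own batch (columns, with the batch) for each gene (rows), printed in each cell and coloured from blue (lower) to red (higher). *Fos* ranges from -2.95 in PT2 to 3.90 in AstroEGFR_1_Zfp423, and the left and the right block of the plot use the same 3 AstroEGFR libraries.

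The libraries that moved together for *Jun*, *Junb* and *Egr2*, AstroEGFR_1_Zfp423 and AstroEGFR_2_Zfp423, were those with microglial markers summing to 410 and 181 FPKM, against 0.0779 in AstroEGFR_3_Zfp423. They were also high in fibroblast or meningeal markers, at 4449 and 6183 against 222 FPKM, and low in astrocyte markers, at 121 and 4.97 against 780 FPKM. *Egr2* stood at 16.1 FPKM in AstroEGFR_3 too, where microglial markers summed to 0.543 FPKM and fibroblast markers to 5072. The part of other cell types in these values was not tested, and in bulk RNA a different number of cells of a type and a different level per cell cannot be told apart.

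**Figure D4:**
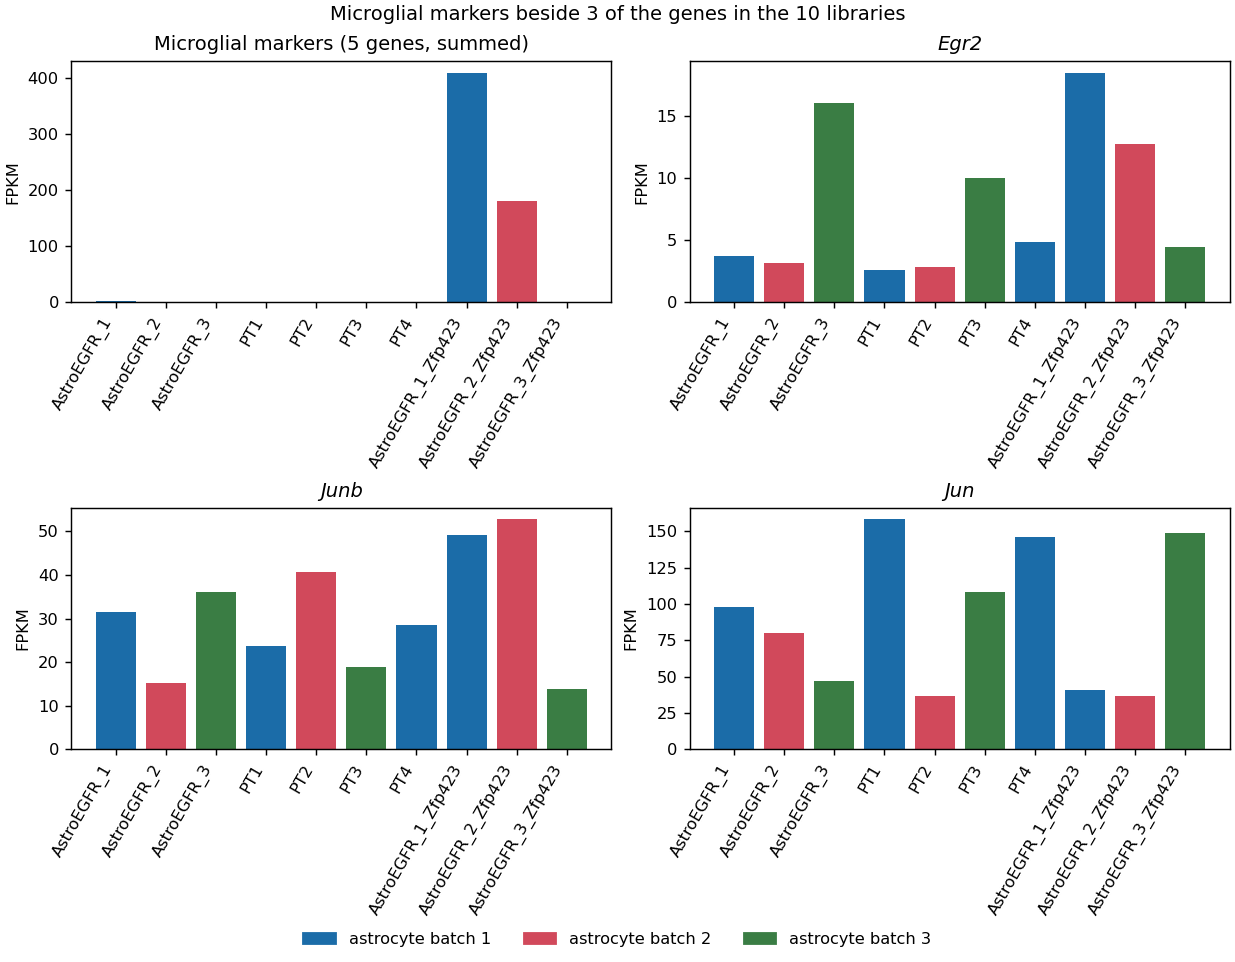
Summed FPKM of 5 microglial markers (top left) and FPKM of *Egr2*, *Junb* and *Jun* (other panels) in each of the 10 libraries, with bar colour for the astrocyte batch. The marker sum is 410 in AstroEGFR_1_Zfp423 and 181 in AstroEGFR_2_Zfp423, where *Egr2* is 18.5 and 12.8, while *Egr2* is also 16.1 in AstroEGFR_3, where the sum is 0.543.

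With batch 3 left out, the log2 fold change was 1.88 (SE 0.31) for *Egr2* and 1.18 (SE 0.38) for *Junb*, while *Jun* stood at -1.18 (SE 0.27), with adjusted p-values of 0.194, 0.330 and 0.259 by limma. These are the values of the batches that moved together, and none of the 10 genes was called in that fit. Nor was any when the infected libraries of batches 1 and 2 were left out, which leaves AstroEGFR_3_Zfp423 alone, assumed to vary as AstroEGFR do.

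PT relative to the AstroEGFR of their own batches also differed between batches. Of the 10 genes, 4 (*Fosb*, *Fosl1*, *Jun* and *Egr1*) were at least 2-fold higher in 1 batch and at least 2-fold lower in another, beside 7.05% of all features, where batch 1 counted only if PT1 and PT4 both passed. *Fos* is left out by that rule, since it was 9.24-fold lower in PT2 and 2.14-fold lower in PT3 but at least 2-fold higher in PT4 alone. *Egr1* was 2.87-fold higher in PT3 and 3.45-fold lower in PT2, and *Fosl1* was 6.03-fold higher in PT3 and 3.17-fold lower in PT2. PT1 and PT4, from the same batch, differed from each other for *Fos*, which was 1.55-fold and 5.81-fold above AstroEGFR_1, and for *Fosl1*, which was 1.46-fold above and 1.95-fold below it. The gap between these cultures of 1 batch was 3.74-fold for *Fos* and 2.84-fold for *Fosl1*.

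PT were compared with infected AstroEGFR to place both derivatives of the same astrocytes side by side. The means of *Fos*, *Fosb* and *Fosl2* were lower in PT, and none passed the test after adjustment. Of the 3 infected libraries, those of batches 1 and 2 held microglial markers summing to 410 and 181 FPKM and fibroblast or meningeal markers summing to 4449 and 6183, against at most 0.191 and 367 in PT. Small RNA features made up 34.8% to 54.6% of the summed FPKM in the infected libraries and 0.42% to 33.9% in PT. The part of these markers and of the small RNA share in the values that follow was not tested. *Fosb* stood at 0.522 ± 0.542 FPKM in PT (SD, n = 4) and 2.90 ± 1.58 with the vector (SD, n = 3), with a log2 fold change of -1.33 (SE 0.47, interval -2.41 to -0.24), an unadjusted p of 0.0231 and an adjusted p of 0.268 by limma. *Fos* stood at 15.4 ± 17.2 and 59.5 ± 52.8 FPKM, with a log2 fold change of -2.01 (SE 0.84, interval -3.97 to -0.05), an unadjusted p of 0.0458 and an adjusted p of 0.305. *Fosl2*, at 25.03 ± 4.28 and 35.6 ± 9.0 FPKM, was the gene whose groups did not overlap, with a log2 fold change of -0.48 (SE 0.25, interval -1.07 to 0.10, adjusted p = 0.392).

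*Fos*, *Fosb* and *Fosl2* were lower in each of the 4 PT libraries than in the infected library of the same batch, as were 15.7% of all features. Exact permutation, two-sided and unadjusted, gave p = 0.0571 for *Fosl2*, 0.0857 for *Fosb* and 0.143 for *Fos*. *Egr2* was lower in PT by 1.05 on the log2 scale (SE 0.55, adjusted p = 0.397 by limma), and *Ier2* was 0.72 higher (SE 0.39, adjusted p = 0.412). For *Jun* the log2 fold change was 0.69 (SE 0.66) and for *Egr1* 0.56 (SE 0.83), while *Fosl1*, *Junb* and *Egr3* stood within 0.30 of 0.

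Of the 10 genes, 4 had a higher and 6 a lower mean of log2(FPKM + 1) in PT, and 0 were called, beside 2 of 12412 features (0.0161%). The 2 features, looked up after the values were seen, were *Cacng5* and *Efs*, both higher in PT. At an unadjusted p under 0.05 it was 2 of the 10 genes, beside 16.0% of features, and 1 of the 10 had groups that did not overlap, beside 14.5%. The median log2 fold change was -0.19 for the 10 genes and -0.03 for all features. The count over all features rose to 629 without AstroEGFR_3_Zfp423 and 213 without PT2, was 4 without PT3 (*Aebp1*, *Cacng5*, *Cdh20* and *Pou3f1*), 1 without AstroEGFR_1_Zfp423 (*Ltbp1*, lower in PT), 1 without AstroEGFR_2_Zfp423 (*Cacng5*) and 0 without PT1 or PT4, all named after the values were seen. With the batch as a block it was 20. Among the 10 genes it was 0 throughout. Without the infected libraries of batches 1 and 2, AstroEGFR_3_Zfp423 stood alone against PT, which then supplied the whole spread, and the log2 fold changes were -1.84 (SE 1.16) for *Fos* and -1.50 (SE 0.62) for *Fosb* (adjusted p = 0.954 for both by limma) and 0.00 (SE 0.72) for *Egr2*. Without batch 3, which sets PT against the 2 infected libraries with microglial markers, *Egr2* came nearest to the threshold of all the fits, at -1.92 (SE 0.36, adjusted p = 0.0512).

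**Figure D5:**
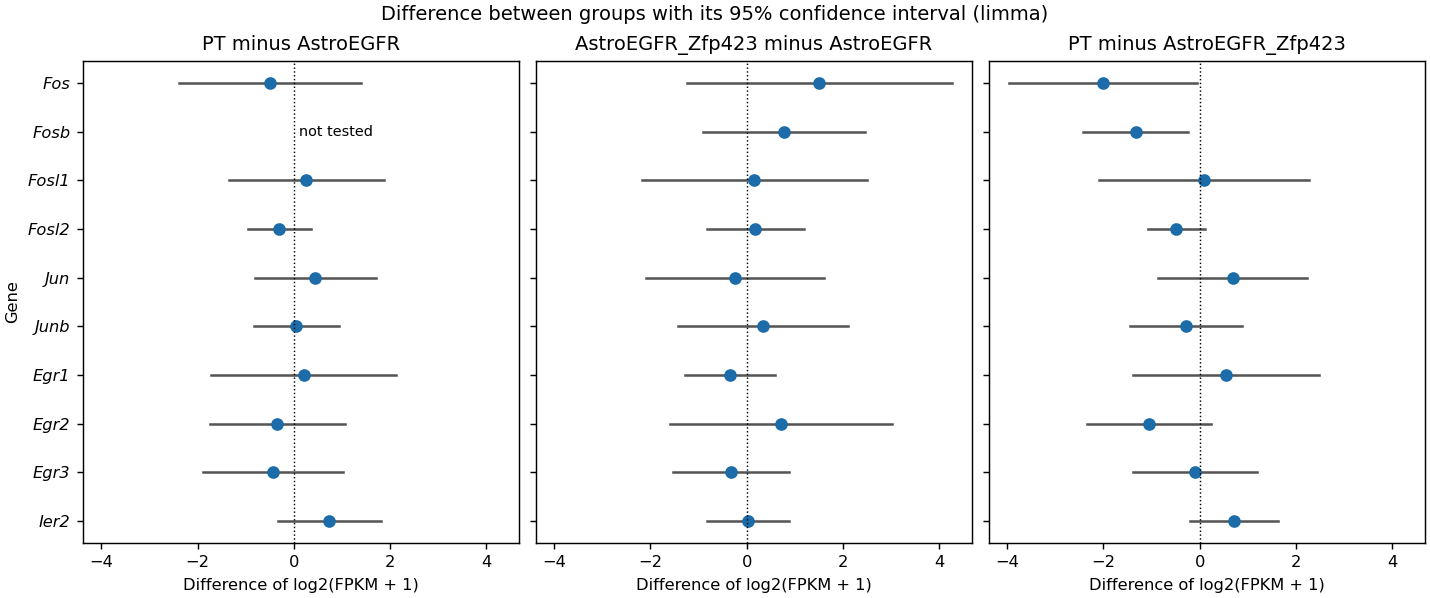
Difference of log2(FPKM + 1) between groups for each gene in the 3 comparisons (horizontal axis), with points for the limma estimate and lines for the 95% confidence interval. Every interval crosses 0 except those of *Fos* and *Fosb* between PT and AstroEGFR_Zfp423, and *Fosb* was not tested between PT and AstroEGFR.

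Other genes of the same response were read from lists. Among 27 further immediate-early genes, 25 could be tested between PT and AstroEGFR, of which 2 fell and 0 rose past the threshold, beside 0.922% and 0.318% of all features, with a median log2 fold change of -0.26. *Cyr61*, a secreted matricellular protein of the YAP and serum response, was listed at 301, 317 and 416 FPKM in AstroEGFR and at 9.39, 6.75, 22.6 and 10.1 FPKM in PT1, PT2, PT3 and PT4. It fell by 4.83 on the log2 scale (SE 0.39, adjusted p = 0.00471 by limma), with adjusted p-values of 0.00313 to 0.0480 over all the alternatives. In the infected libraries it stood at 233, 295 and 87.1 FPKM.

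*Dusp1*, a phosphatase that switches off MAP kinases, was listed at 38.2, 53.8 and 32.03 FPKM in AstroEGFR and at 13.1, 5.47, 6.29 and 11.2 FPKM in PT1, PT2, PT3 and PT4. It fell by 2.13 on the log2 scale (SE 0.35, adjusted p = 0.0372). The groups did not overlap, but the adjusted p was 0.0725 to 0.163 when any library other than PT1 was left out (AstroEGFR_1, AstroEGFR_2, AstroEGFR_3, PT2, PT3 or PT4), 0.161 without batch 3 and 0.0665 without a filter on low values, while the log2 fold change stayed at -2.32 to -1.92 over all the alternatives. In the infected libraries *Dusp1* stood at 67.8, 79.2 and 25.2 FPKM. For *Cyr61* and *Dusp1* all PT libraries thus lay below all libraries of both other groups. Over all features, 14.8% did not overlap between PT and AstroEGFR and 14.5% between PT and the infected libraries, in either direction. Fibroblast or meningeal markers summed to 270.1 to 5072 FPKM in AstroEGFR, 222 to 6183 in the infected libraries and 0.901 to 367 in PT. The 6 markers of the oligodendrocyte lineage summed to 61.1 to 222 FPKM in AstroEGFR, 28.2 to 160.1 in the infected libraries and 130.5 to 1648 in PT. Both sums overlapped between the groups. Their part in the values of *Cyr61* and *Dusp1* was not tested.

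In the other lists no gene was called between PT and AstroEGFR in the main fit, which left the batch out. The lists were not read from the fit with the block. Over all 12261 features 6389 were higher and 5872 lower. Of 10 tested AP-1 and Maf relatives, 6 were higher and 4 lower, led by *Atf3* (log2 fold change 2.21, SE 0.91), *Jdp2* (1.31, SE 0.38) and *Mafk* (-1.24, SE 0.28). Of 8 ERK, JNK, RSK and MSK kinases, which carry the signal to these genes, 5 were higher and 3 lower, led by *Mapk3* at -0.52 (SE 0.43), *Rps6ka3* at 0.42 (SE 0.51) and *Mapk9* at 0.22 (SE 0.20). Of 8 genes for SRF, its cofactors and CREB, which bind the promoters, 3 were higher and 5 lower, led by *Srf* at -0.72 (SE 0.35), *Crem* at 0.59 (SE 0.27) and *Mkl1* at -0.40 (SE 0.38).

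The corepressors of Egr proteins, *Nab1* at -0.19 (SE 0.24) and *Nab2* at 0.47 (SE 0.35), were not called either. Of 10 tested AP-1 target genes from textbooks, 4 were higher and 6 lower in PT, led by the chemokine *Ccl2* at 2.0 (SE 0.55), the protease *Mmp3* at -1.92 (SE 0.50) and its inhibitor *Timp1* at -1.36 (SE 0.64), with adjusted p-values of 0.156, 0.137 and 0.414 by limma. The median log2 fold changes were 0.11 for the AP-1 and Maf relatives, 0.11 for the kinases, -0.10 for SRF, its cofactors and CREB, 0.14 for the corepressors and -0.30 for the target genes, beside 0.03 for all features.

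With the *Zfp423* vector no gene of any list was called, and of all 12366 features 6397 were higher and 5969 lower. The 25 further immediate-early genes had 15 higher and 10 lower means, a median of 0.34 and *Plk2* (1.75, SE 0.78), *Plk3* (1.58, SE 0.32) and *Ptgs2* (1.25, SE 1.61) in front. Of the 10 AP-1 and Maf relatives 5 were higher, with a median of 0.05 and *Atf3* (2.48, SE 0.33) and *Jdp2* (1.77, SE 0.55) in front. Of 12 AP-1 target genes 9 were higher, with a median of 0.44 and *Ccl2* (2.09, SE 1.17), *Plau* (1.93, SE 0.98) and *Mmp13* (1.73, SE 1.20) in front. These 3 genes were above every AstroEGFR library in the infected libraries with microglial and fibroblast markers and below AstroEGFR_3 in that of batch 3: *Ccl2* stood at 23.3, 99.1 and 1.02 FPKM in the infected libraries of batches 1, 2 and 3, against 3.06 in AstroEGFR_3. *Plau* stood at 15.9, 65.1 and 0.351 FPKM, against 1.28, and *Mmp13* at 37.1, 1.34 and 0 FPKM, against 0.737. The part of other cell types was not tested.

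Among the regulators, 4 of 8 kinases were higher with the vector (median -0.06), led by *Mapk3* at -0.71 (SE 0.47). Of the 8 genes for SRF, its cofactors and CREB, 2 were higher (median -0.13), led by *Elk4* at 0.80 (SE 0.31), and *Nab2* stood at 0.12 (SE 0.29) and *Nab1* at -0.04 (SE 0.57). The median of all features was 0.02.

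Between PT and infected AstroEGFR no gene of any list was called, and of all 12412 features 5974 were higher and 6438 lower in PT. Of the 25 further immediate-early genes 18 were lower in PT, with a median of -0.45 beside -0.03 for all features, led by *Cyr61* (-3.92, SE 0.52, adjusted p = 0.0908), *Dusp1* (-2.47, SE 0.47, adjusted p = 0.147) and *Gadd45g* (1.66, SE 0.93). Of 11 AP-1 target genes 9 were lower, with a median of -0.80, led by *Timp1* (-2.29, SE 0.53), *Mmp13* (-2.15, SE 1.13) and *Plau* (-1.76, SE 1.59). In the infected libraries of batches 1, 2 and 3 *Timp1* stood at 253, 577 and 104 FPKM, *Mmp13* at 37.1, 1.34 and 0 and *Plau* at 15.9, 65.1 and 0.351. The first 2 of these libraries hold the microglial and fibroblast markers, and the part of other cell types was not tested. *Jund* led the AP-1 and Maf relatives, at 1.82 (SE 0.42, adjusted p = 0.177), and 6 of those 10 were lower, with a median of -0.21.

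The kinases, at a median of 0.15 with *Rps6ka1* at -0.75 (SE 0.25) in front, the genes for SRF, its cofactors and CREB, at -0.14 with *Elk4* at -0.91 (SE 0.41) in front, and the corepressors, at 0.10, stood nearer to the median of all features. The 3 comparisons share libraries, so a gene that is high in 1 group enters 2 of them.

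The features whose profile over the 10 libraries was nearest to *Fos*, by the root mean square difference of log2(FPKM + 1) after centring, were *Mn1* (0.77), *Irs1* (0.78) and *Rgs10* (0.86), against a median of 1.47 over 12476 features. *Fosb* was the nearest of the other 9 genes, at 1.04 and rank 20. For *Fosl1* the nearest features were *Hmga1* (0.52), *Angptl2* (0.61) and *Slc30a4* (0.63), and *Jun* was the nearest of the 10 genes, at rank 286.

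For *Egr1* the nearest were *Armcx6* (0.40), *Chchd6* (0.51) and *Cmc1* (0.51), and *Egr3* was the nearest of the 10 genes, at 0.64 and rank 32. *Fos* and *Egr1* themselves were far apart, at 1.65, above the median distance of either. A near profile over 10 libraries that also differ in depth and in markers of other cell types describes these libraries only.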

How the data were processed

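For 10 libraries the authors deposited FPKM of 23230 features, 1 row per gene symbol. The submitters' processing notes name TopHat 1.3, Cuffnorm and mm9. The labels give a TruSeq RNA kit, and the methods give ribosomal RNA removal and stranded kits. FPKM hold no counts, so depth and its precision are unknown, and the relative depth was read from features listed at 0.

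Groups were compared with limma 3.58.1 (R 4.3.3; linear model, empirical Bayes with trend) on log2(FPKM + 1), over features whose mean FPKM in the libraries compared reached 1. This scale understates changes of low genes. P-values were adjusted by Benjamini-Hochberg over all these features, with a threshold of 0.05. The comparison with the *Zfp423* vector used the astrocyte batch as a block, since infected and uninfected cells of a number are the same culture. Deviations of the 3 such pairs from their group means correlated at 0.241, -0.111 and -0.262 in batches 1, 2 and 3, while AstroEGFR_3 with AstroEGFR_2_Zfp423 came to 0.308 and AstroEGFR_2 with AstroEGFR_3_Zfp423 to 0.224. The pairing of batches 2 and 3 therefore rests on the labels. The 4 AstroEGFR and PT pairs correlated at 0.346 to 0.499. The main fits with PT and the exact permutation nevertheless left the batch out, and so counted PT1 and PT4 as independent. The batches of PT come from the study's description, and every value of PT within a batch rests on them. Scripts used Python 3.11.15, numpy 2.4.6, pandas 2.3.3, scipy 1.17.1 and matplotlib 3.10.9, and the fit was tested on simulated data.

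The 10 genes, the gene lists and the cell type markers were chosen with earlier results of these data known. All 10 genes are named. Of the lists, genes past the threshold are named or, where there are none, up to 3 with the largest log2 fold change, of which the first alone is given for some regulators. The result of 1 gene that this rule names is not reported here. For profiles, the 3 nearest features to *Fos*, *Fosl1* and *Egr1* are named. Alternatives were a pseudocount of 0.1, no filter, median-ratio scaling, no trend, the block added or removed, each library left out, and batch 3 left out. Leaving out 2 infected libraries with microglial markers, and the alternatives for *Cyr61* and *Dusp1*, were added after the values were seen.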

Additional observations from a re-analysis of the deposited data

Results flagged for a closer look

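*Fosb* in PT3 stood apart from the other 3 PT libraries. It was listed at 1.33 FPKM there and at 0.191 to 0.332 in PT1, PT2 and PT4, and on the log2(FPKM + 1) scale the gap to the nearest library was 0.834 of the range of the group, just above the limit of Dixon's test for 4 samples. All 10 genes were screened in this way, and chance alone gives this in about 1 of 20 groups. PT3 was also 1 of the 2 shallow libraries, and the part of depth in this value was not tested.

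The other values concern genes that were at least 2-fold higher than AstroEGFR in 1 astrocyte batch and at least 2-fold lower in another. The difference between batches was not tested, since a batch holds 1 library of each kind, PT1 and PT4 excepted. Batch 1 of PT counted only where PT1 and PT4 both passed. With the *Zfp423* vector, *Fos* stood at 16.9 times its AstroEGFR level in batch 1, 0.468 times in batch 2 and 3.4 times in batch 3. *Fosb* stood at 6.14, 0.482 and 4.9 times in batches 1, 2 and 3. *Fosl1* stood at 0.15 times in batch 1 and 3.9 times in batch 3. *Jun* stood at 0.414, 0.458 and 3.16 times in batches 1, 2 and 3. *Junb* stood at 3.48 times in batch 2 and 0.382 times in batch 3, and *Egr2* at 4.96, 4.03 and 0.279 times in batches 1, 2 and 3.

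In PT relative to AstroEGFR, *Fosb* stood at 0.33 times in PT1, 0.269 times in PT4, 0.131 times in PT2 and 2.09 times in PT3. *Fosl1* stood at 0.316 times in PT2 and 6.03 times in PT3, *Jun* at 0.459 and 2.3 times, and *Egr1* at 0.29 and 2.87 times. All 4 genes were therefore lower in PT2 and higher in PT3 than in the AstroEGFR library of the same batch.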

How the results depend on the processing

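No setting called any of the 10 genes in any comparison. The count of all features called between PT and AstroEGFR was 475 with the batch as a block and 8 without batch 3, and 7 to 123 when 1 library was left out. With the *Zfp423* vector it was 2 without the block (*Mir1907* and *Snord111*, named after the values were seen), 12 without the block and the 2 infected libraries with microglial markers, and 0 to 60 with 1 library left out. Between PT and infected AstroEGFR it was 0 with a pseudocount of 0.1, 0 without the filter, 20 with the block, 589 without batch 3, 7 without those 2 infected libraries, and 0 to 629 with 1 library left out. The replicate block changed no call among the 10 genes. The cause of these shifts was not tested.

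Some log2 fold changes turned in sign. Without batch 3, *Fosl1* came to -0.55 and *Egr1* to -0.13 between PT and AstroEGFR, and *Fosl1* to -0.64 and *Egr3* to 0.0158 with the vector. Without the 2 infected libraries, *Fosl2* came to -0.0025, *Jun* to 1.04, *Junb* to -0.87, *Egr2* to -0.35 and *Ier2* to -0.0104 with the vector (without the block), and *Fosl1* to -0.90, *Jun* to -0.59, *Junb* to 0.92 and *Egr2* to 0.0031 between PT and infected AstroEGFR. With 1 library left out, the ranges that crossed 0 between PT and AstroEGFR were -1.12 to 0.18 for *Fos*, -0.25 to 0.74 for *Fosl1*, -0.32 to 0.28 for *Junb*, -0.43 to 0.88 for *Egr1*, -0.71 to 0.30 for *Egr2* and -0.85 to 0.0140 for *Egr3*. With the vector they were -0.64 to 1.33 for *Fosl1*, -0.26 to 0.49 for *Fosl2*, -1.18 to 0.27 for *Jun*, -0.35 to 1.18 for *Junb*, -0.70 to 0.0158 for *Egr3* and -0.30 to 0.30 for *Ier2*. Between PT and infected AstroEGFR they were -0.87 to 0.60 for *Fosl1*, -0.90 to 0.0360 for *Junb*, -0.0784 to 1.23 for *Egr1* and -0.47 to 0.30 for *Egr3*. Some ranges on 1 side of 0 were wide too: 0.15 to 0.91 for *Jun*, -0.55 to -0.0979 for *Fosl2* and 0.39 to 1.05 for *Ier2* between PT and AstroEGFR, 0.31 to 2.79 for *Fos*, 0.33 to 1.49 for *Fosb*, -0.75 to -0.11 for *Egr1* and 0.0422 to 1.88 for *Egr2* with the vector, and -2.63 to -1.32 for *Fos*, 0.33 to 1.33 for *Jun* and -1.58 to -0.66 for *Egr2* between PT and infected AstroEGFR. *Fos*, *Fosb*, *Fosl2* and *Ier2* kept their direction in that last comparison under every setting. Over all settings *Fosl2* ran from -0.65 to -0.29 there and *Ier2* from 0.42 to 1.025. Depth is unknown, so counting error could not be set beside the spread between libraries.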
